A study of Rattus norvegicus with 58 samples.

Results

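The comparison of gastrocnemius with triceps brachii in adult rats of 8 months was made on 20 of the 58 RNA-seq libraries of the series, 10 from each muscle of the same 10 rats. All 58 libraries were fitted together, so that the gene filter, the spread and the p-values also drew on the older rats. Members were chosen by the sample labels alone, and the muscles were paired by the animal number. The rats were untreated male Wistar rats, without any transgene or drug. The same holds for the 18-month rats (10 per muscle), to which some values are compared, and for the 24-month rats (18 libraries), which entered the fit. The gastrocnemius is the calf muscle of the hindlimb, and the triceps brachii extends the elbow in the forelimb. Each sample was whole muscle dissected free of fat, so that fibres, vessels, nerve endings, connective tissue and blood were read together, and fewer cells of a type and less RNA per cell cannot be told apart.

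Limb muscles of a rat are built from fast fibres, which split glycogen for short bursts of force, and slow or oxidative fibres, which burn fatty acids in mitochondria for long activity. Muscles differ in their mix of these fibres and also keep a positional identity: Hox genes, transcription factors that mark positions along the body and the limb, stay active in adult limbs according to where a muscle formed. The study set a hindlimb muscle beside a forelimb muscle because limb muscles lose mass unequally with age, and the adult rats give the difference between the muscles before that loss.

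The gastrocnemius libraries held 14966608 to 29398080 reads on genes (median 19261804) and the triceps brachii libraries 11176076 to 51254759 (median 19359793). Levels are given as CPM, counts scaled to the size of the library, after edgeR's TMM correction for library composition (TMM CPM). Differences are log2 fold changes of triceps brachii against gastrocnemius from edgeR's quasi-likelihood test with the rat as a block, positive where triceps brachii was higher, with Benjamini-Hochberg adjusted p over 14947 genes. A gene was called at an adjusted p under 0.05. All 20 libraries held high levels of genes of skeletal muscle. The lowest level was 3296 TMM CPM for Atp2a1, the calcium pump of fast fibres, and 7500 TMM CPM for Pygm, the glycogen phosphorylase of muscle. Both genes are abundant in both muscles, so that they cannot tell gastrocnemius from triceps brachii.

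A pair of libraries stood apart from their groups. On the first principal component of 12408 genes, which held 27.2% of the variance, the other 9 gastrocnemius libraries had scores of -26.9 to -11.1 and the other 9 triceps brachii libraries scores of 4.4 to 28.1. The gastrocnemius of rat 4 scored 10.8, among the triceps brachii libraries, and the triceps brachii of rat 6 scored -7.26, between the groups. Both libraries had the Hoxd8 and Hoxd9 levels of their labelled muscle. Counts of called genes are therefore also given without these 2 rats, a comparison chosen after the data were seen.

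At 8 months 622 of the 14947 genes were called, which is 4.16% of the genes tested. Of these, 276 were higher in triceps brachii (1.85% of the genes tested) and 346 in gastrocnemius (2.31%). The larger differences lay mostly on the gastrocnemius side: 142 genes were more than 2-fold higher in gastrocnemius (0.95% of the genes tested) and 35 in triceps brachii (0.234%). The median size of a called difference was 0.81 on the log2 scale for genes higher in gastrocnemius and 0.45 for genes higher in triceps brachii, against 0.12 over all genes tested. Over all genes the log2 fold changes had a median of -0.01. Without rats 4 and 6, 752 genes were called, and 198 genes were called in every one of the 10 fits that left out 1 rat.

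**Figure D1:**
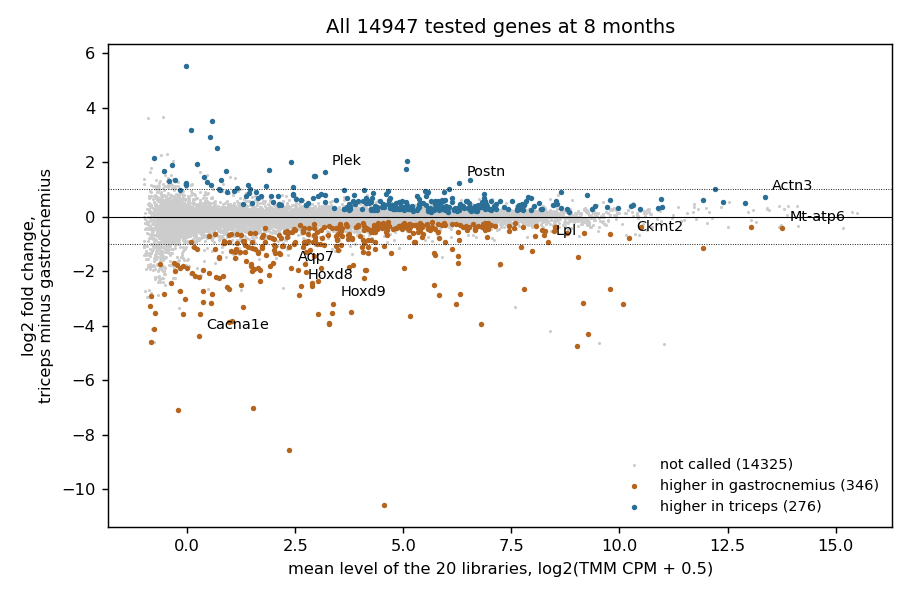
Log2 fold change of triceps brachii against gastrocnemius (vertical axis) against the mean level of the 20 libraries in log2(TMM CPM + 0.5) (horizontal axis) for the 14947 tested genes. Brown points are the 346 genes called higher in gastrocnemius, blue points the 276 called higher in triceps brachii, grey points the genes not called, and dotted lines mark a 2-fold difference. The large differences are mostly on the gastrocnemius side, down to -10.57.

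Called genes were found at every level of expression. Of the 1407 genes that averaged 100 TMM CPM or more in either muscle, 141 were called (10.0%), against 286 of 6602 genes at 10 to 100 TMM CPM (4.33%), 164 of 4532 at 1 to 10 TMM CPM (3.62%) and 31 of 2406 below 1 TMM CPM (1.29%). Among the most abundant genes 16 were more than 2-fold higher in gastrocnemius, 9 of them more than 4-fold. None of these 16 has a symbol here. Symbols were at hand for 2163 genes that the study had listed for an unequal change with age in the muscles, a choice made with these same 8-month libraries, so that named genes are not a random draw: 6.93% of them were called, against 3.69% of the genes without a symbol. Of the 177 called genes with a difference over 2-fold, 19 have a symbol. All list members below have a symbol. Of the 2163 genes, 76 were called higher in triceps brachii and 74 in gastrocnemius, a larger share than over all genes tested (6.93% against 4.16%). The shares, medians and counts of direction of the lists carry this choice, both over genes and within rats. A choice on the change with age can favour members whose difference leans one way. These values therefore describe the members with a symbol, and whether the whole lists lean the same way was not tested.

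Genes of limb position gave the clearest named differences. Hoxd9 and Hoxd8, neighbours in the HoxD cluster that help to pattern the limb along its length, were higher in gastrocnemius in 10 of 10 rats, as 1.86% of all genes tested were (1.48% were higher in triceps brachii in 10 of 10). Hoxd9 (ENSRNOG00000001580) had 11.5, 16.7 and 30.7 TMM CPM in gastrocnemius (lowest, median and highest of 10 libraries) and 1.3, 1.57 and 3.37 in triceps brachii. Its mean was 17.9 ± 5.71 against 1.98 ± 0.744 TMM CPM (SD, n = 10 rats), which is 9.1-fold or -3.19 on the log2 scale (adjusted p = 5.28e-11 from edgeR, SE 0.24). Hoxd8 (ENSRNOG00000042480) had 7.34, 9.59 and 14.3 TMM CPM in gastrocnemius and 1.03, 1.56 and 4.11 in triceps brachii, which is 5.84-fold or -2.54 on the log2 scale (adjusted p = 4.75e-11 from edgeR, SE 0.19). For neither gene did the groups overlap, which 28 of all genes tested (0.187%) showed in this direction. Both were also the steadiest named differences in this direction, with the largest ratio of estimate to standard error.

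The promoters of this pair are shown because they are the named genes with the firmest difference. In RefSeq the start of Hoxd8 lies 7217 bases downstream of the start of Hoxd9, both on the plus strand of chromosome 3 of GRCr8, at chr3:80014973-80015272 and chr3:80007756-80008055. Each window covers 250 bases before the start and 50 after it, and capitals mark the GC box GGGCGG, searched on both strands, which 33.1% of all 33469 promoters hold.
Hoxd9: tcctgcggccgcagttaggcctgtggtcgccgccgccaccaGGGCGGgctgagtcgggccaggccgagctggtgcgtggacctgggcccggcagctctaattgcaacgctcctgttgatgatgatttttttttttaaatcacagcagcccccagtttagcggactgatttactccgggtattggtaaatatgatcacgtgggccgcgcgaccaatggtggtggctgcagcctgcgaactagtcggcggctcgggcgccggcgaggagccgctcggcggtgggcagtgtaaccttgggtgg
Hoxd8: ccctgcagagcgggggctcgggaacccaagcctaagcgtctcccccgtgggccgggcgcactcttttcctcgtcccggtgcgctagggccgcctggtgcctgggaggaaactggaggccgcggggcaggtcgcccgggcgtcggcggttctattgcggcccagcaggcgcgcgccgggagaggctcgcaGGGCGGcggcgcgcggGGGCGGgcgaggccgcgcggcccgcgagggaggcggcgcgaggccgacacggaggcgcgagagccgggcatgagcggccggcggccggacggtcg
Hoxd9 holds 1 such match, 209 bases before its start, and Hoxd8 holds 2, at 61 and 45 bases before it. The counts come from reads on Rnor_6 and carry no information on which start was used.

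Other position factors differed less. Of the 10 genes with a symbol on a list of 75 limb and body position factors, 3 were called higher in gastrocnemius (against 2.31% of all genes tested) and 2 in triceps brachii (against 1.85%), and the counts were also 3 and 2 without rats 4 and 6. The third of those higher in gastrocnemius was Eya2, a transcriptional cofactor of muscle formation, with 3.64, 4.92 and 6.98 TMM CPM against 2.2, 3.5 and 4.94 in triceps brachii (-0.52, SE 0.15, adjusted p = 0.0414 from edgeR). Its groups overlapped. Higher in triceps brachii were Irx3, a homeobox factor, with 0.338, 1.46 and 2.73 TMM CPM in gastrocnemius and 1.79, 2.66 and 5.7 in triceps brachii (1.16, SE 0.28, adjusted p = 0.0149 from edgeR), and Scx, the scleraxis factor of tendon cells, with 14.6 and 19.4 TMM CPM as medians (0.51, SE 0.14, adjusted p = 0.0377 from edgeR). Hoxd9, Hoxd8 and Irx3 were called with each rat left out. Eya2 lost its call without rat 1, 2, 3, 5, 6, 7, 9 or 10 and Scx without any rat but rat 4, with an adjusted p of up to 0.103 and 0.0905 in edgeR.

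**Figure D2:**
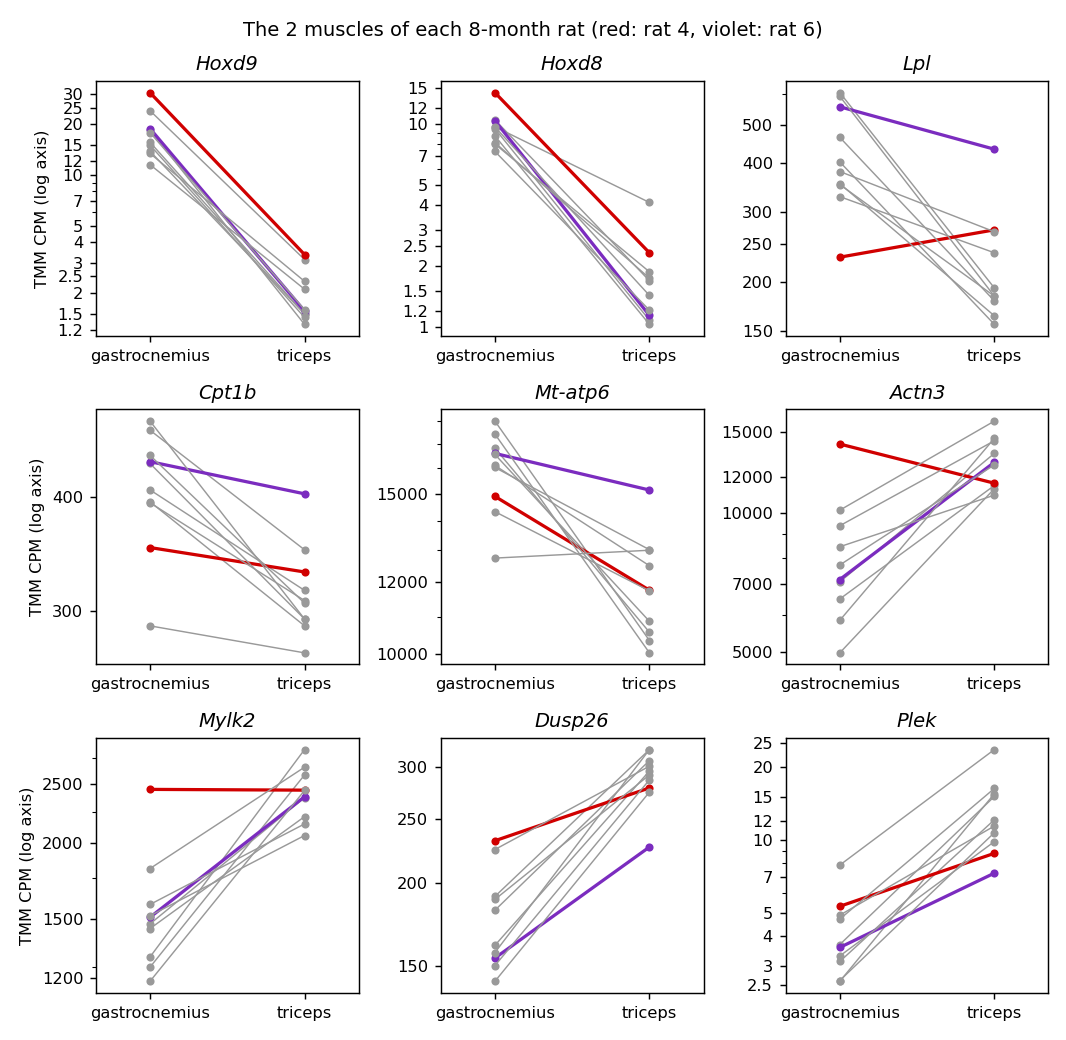
Levels in TMM CPM (vertical axes, log scale) of 9 genes in gastrocnemius and triceps brachii, with 1 line for each of the 10 rats. Hoxd9 and Hoxd8 are higher in gastrocnemius in every rat without overlap; Actn3 and Mylk2 are higher in triceps brachii in 9 of 10 rats, the exception being rat 4 (red), and rat 6 is drawn in violet.

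Genes for the use of fatty acids were the named group with the most calls. This list covers the uptake of fatty acids, their activation, their entry into mitochondria and their stepwise oxidation. Of its 40 members with a symbol, 12 were called higher in gastrocnemius (against 2.31% of all genes tested) and none in triceps brachii. Of the 40 members, 34 had a negative log2 fold change. Their median was -0.37, beside -0.01 over all genes, which were not chosen for an unequal change with age. The 17 members called without rats 4 and 6 were likewise all higher in gastrocnemius. The other 6 members had a positive log2 fold change, of up to 0.72. In the fits that left out 1 rat, up to 2 members were called higher in triceps brachii. DESeq2 called 18 members higher in gastrocnemius and 1 in triceps brachii. The list median was negative within each of the 10 rats, from -0.69 to -0.03 on the log2 scale, with -0.32 as the middle value. The choice of genes with a symbol drew on these same libraries. The medians and counts of direction are therefore no independent evidence that the whole list leans to gastrocnemius.

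Uptake and activation showed the largest differences of the called members. Lpl, the lipase that frees fatty acids from blood lipids at the vessel wall, had 231, 392 and 604 TMM CPM in gastrocnemius and 156, 189 and 434 in triceps brachii. It was higher in gastrocnemius in 9 of 10 rats, by 1.9-fold or -0.93 on the log2 scale (adjusted p = 0.0125 from edgeR, SE 0.22). The exception was rat 4. Cd36, which carries fatty acids into cells, had 57.2, 96.9 and 151 TMM CPM against 36, 48.5 and 83.4 (-0.85, SE 0.23, adjusted p = 0.0356 from edgeR). Acsl1, which links fatty acids to coenzyme A, had 350, 535 and 717 TMM CPM against 253, 332 and 517 (-0.59, SE 0.15, adjusted p = 0.0243 from edgeR). In each of the 3 genes the groups overlapped.

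Entry into mitochondria and the oxidation steps differed by less in size. Cpt1b, the muscle form of the transferase that limits entry, had 289, 421 and 484 TMM CPM in gastrocnemius and 270, 307 and 403 in triceps brachii. It was higher in gastrocnemius in 10 of 10 rats (-0.37, SE 0.09, adjusted p = 0.0127 from edgeR). Cpt2, the next transferase, had a log2 fold change of -0.47 (SE 0.14), and Mlycd, which removes the malonyl-CoA that blocks entry, one of -0.37 (SE 0.09). Hadha, a subunit of the enzyme complex for long chains, had 317, 439 and 504 TMM CPM against 237, 278 and 423 and was also higher in gastrocnemius in 10 of 10 rats (-0.51, SE 0.12, adjusted p = 0.0136 from edgeR). Acadvl and Acads, the dehydrogenases for very long and short chains, had log2 fold changes of -0.50 and -0.48, and Hadh, the dehydrogenase of the third step, -0.50. Acot2, a mitochondrial thioesterase, and Acat1, a thiolase, followed with -0.43 and -0.37.

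Of the members not called, Hadhb, the partner subunit of Hadha, had a log2 fold change of -0.38 (adjusted p = 0.0695 from edgeR), with higher levels in gastrocnemius in 10 of 10 rats. Acadm, for medium chains, had -0.37 (adjusted p = 0.214 from edgeR), Acss1, which activates acetate in mitochondria, -0.68 (adjusted p = 0.0587 from edgeR), and Lipe, the hormone-sensitive lipase, -0.43 (adjusted p = 0.116 from edgeR). Lpl, Hadha, Mlycd and Cpt1b were called with each rat left out. The other 8 lost their call without at least 4 of the rats, with an adjusted p of up to 0.115 in edgeR (Cpt2 without rat 10), and the list's count fell to 4 without rat 2, 3, 5 or 10 and to 5 without rat 9. Their log2 fold changes stayed negative in each of these fits, as in Cpt2 with -0.52 to -0.43.

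Of the 12 called genes, 10 have a promoter in the RefSeq table. The promoter of Acadvl (GRCr8, chr10:55236656-55236955, minus strand, printed 5′ to 3′ on the gene's strand) is shown as the single one of the 10 that holds the hexamer AGGTCA, the core to which many nuclear receptors of fat metabolism bind. Capitals mark its 2 matches, 169 and 17 bases before the start; 16.2% of all promoters hold the hexamer on either strand, beside 1 of these 10.
Acadvl: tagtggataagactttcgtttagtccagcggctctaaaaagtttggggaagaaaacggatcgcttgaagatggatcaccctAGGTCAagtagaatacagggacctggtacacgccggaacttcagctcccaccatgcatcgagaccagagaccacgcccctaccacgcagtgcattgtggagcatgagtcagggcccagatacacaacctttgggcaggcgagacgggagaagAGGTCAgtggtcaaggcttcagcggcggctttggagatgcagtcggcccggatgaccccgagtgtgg

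Most genes of the vessel wall were not called. Of 25 members of the blood vessel list, 2 were called, both higher in gastrocnemius (8.0%, against 2.31% of all genes tested). They were Cd36, which is also a member of the fatty acid list, and Aqp7. Of the 25, 23 had a negative log2 fold change, with a median of -0.16. Aqp7, a glycerol channel of small vessels and fat cells, had 2.39, 6.69 and 13 TMM CPM in gastrocnemius and 0.564, 1.89 and 4.2 in triceps brachii (-1.88, SE 0.46, adjusted p = 0.0183 from edgeR). It was lost without rat 2, 3, 9 or 10, with an adjusted p of up to 0.0636 in edgeR. Widely used markers of endothelium were not called, with medians of 84.6 and 68 TMM CPM for Flt1 (-0.15, SE 0.16, adjusted p = 0.711 from edgeR) and 522 and 432 for Aqp1 (-0.12, SE 0.11, adjusted p = 0.649 from edgeR). The summed level of the list was 1239 to 1808 TMM CPM in gastrocnemius and 1165 to 1642 in triceps brachii, ranges that overlap.

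Haemoglobin transcripts, which come from red blood cells left in the tissue, were higher in gastrocnemius. Hba1 had 80.7, 138 and 293 TMM CPM against 60.8, 79.8 and 135 (-0.75, SE 0.22, adjusted p = 0.0423 from edgeR) and Hba2 had 21, 37.5 and 89.4 against 14.2, 21.6 and 39.4 (-0.76, SE 0.20, adjusted p = 0.0243 from edgeR), each higher in gastrocnemius in 10 of 10 rats. These near-identical genes share reads, so that their split is uncertain, and they are the 2 of 6 red blood cell genes with a symbol. Hba1 lost its call without any rat but rat 8, and Hba2 without rat 1, 2, 3, 5 or 10, with an adjusted p of up to 0.124 and 0.0799 in edgeR. The 3 genes of the fat cell list with a symbol were not called by edgeR, DESeq2 or voom, and 1 had an unadjusted p under 0.05 in edgeR; their summed level was 146 to 273 TMM CPM in triceps brachii and 168 to 269 in gastrocnemius, and the defining fat genes have no symbol here. The part of blood, vessels and fat in the differences of the fatty acid genes was not tested.

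Of the 8 protein genes of the mitochondrial genome with a symbol, 3 were called, each higher in gastrocnemius (37.5%, against 2.31% of all genes tested). The 8 had log2 fold changes of -0.43 to -0.25, a median of -0.38 and a negative median in 10 of 10 rats. This shared direction also carries the choice of genes with a symbol. Mt-atp6, a subunit of ATP synthase, had 12748, 16332 and 18012 TMM CPM in gastrocnemius and 10037, 11746 and 15136 in triceps brachii (-0.43, SE 0.12, adjusted p = 0.0385 from edgeR). Mt-nd1 and Mt-nd6, subunits of respiratory complex I, were called with -0.39 (adjusted p = 0.0463 from edgeR) and -0.38 (adjusted p = 0.0393 from edgeR). Mt-cytb had -0.39 (adjusted p = 0.0521 from edgeR) and Mt-co1 -0.40 (adjusted p = 0.1 from edgeR), both lower in triceps brachii in 10 of 10 rats. Of these 3 calls none remained without rat 1, 2, 3, 5, 7, 9 or 10, Mt-atp6 alone remained without rat 4 and without rats 4 and 6, and Mt-nd1 was also lost without rat 8. The 3 genes had log2 fold changes of -0.48 to -0.34 in the fits that left out 1 rat. In limma voom with the within-rat correlation Mt-nd1 and Mt-nd6 were not called (adjusted p = 0.155 and 0.0778), and Mt-atp6 was (adjusted p = 0.0418). The mitochondrial genes are read from both strands of a compact genome, and the strand setting of the counting is not given in the sources used here, so that overlapping genes such as Mt-nd6 are uncertain.

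Nuclear genes of the respiratory chain showed no call among 31 members, against 4.16% of all genes tested, although 30 of the 31 had a negative log2 fold change with a median of -0.16. At an unadjusted p under 0.05, 11 of the 31 passed, each higher in gastrocnemius, beside 16.6% of all genes tested; DESeq2 called 2 of the 31, both higher in gastrocnemius, and voom called 0. Uqcrc1, a core subunit of complex III, had 556, 694 and 800 TMM CPM in gastrocnemius and 502, 554 and 631 in triceps brachii (-0.32, SE 0.10, adjusted p = 0.0788 from edgeR), and Ndufv1 of complex I had -0.32 (SE 0.10, adjusted p = 0.0645 from edgeR). The median over the list was negative in 9 of 10 rats. These counts of direction also carry the choice of genes with a symbol. In the citric acid cycle and the entry of pyruvate, 2 of 27 members were called, both higher in gastrocnemius (7.41%, against 2.31% of all genes tested), and 24 had a negative value (median -0.20). Idh2, which makes NADPH in mitochondria, had 679, 1072 and 1480 TMM CPM against 501, 637 and 1009 and was higher in gastrocnemius in 10 of 10 rats (-0.64, SE 0.15, adjusted p = 0.0153 from edgeR). Suclg2, a subunit of succinyl-CoA ligase, had -0.28 (SE 0.06, adjusted p = 0.0111 from edgeR). Citrate synthase, Cs, a common gauge of mitochondrial content, had 440, 545 and 573 TMM CPM against 396, 445 and 563 (-0.21, SE 0.08, adjusted p = 0.132 from edgeR). Suclg2 was called with each rat left out, and Idh2 was not called without rat 2 (adjusted p = 0.0521 from edgeR).

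Related mitochondrial enzymes followed. Ckmt2, the mitochondrial creatine kinase that hands energy from mitochondria to the contractile fibres, had 1044, 1586 and 1907 TMM CPM in gastrocnemius and 663, 832 and 1153 in triceps brachii, higher in gastrocnemius in 10 of 10 rats (-0.78, SE 0.21, adjusted p = 0.0296 from edgeR). Among 13 genes for the use of branched-chain amino acids, 2 were called higher in gastrocnemius (15.4%, against 2.31% of all genes tested): Mccc2, of leucine breakdown (-0.35, SE 0.08, adjusted p = 0.0134 from edgeR), and Bckdha, a subunit of the dehydrogenase that commits these amino acids to oxidation (-0.34, SE 0.10, adjusted p = 0.0385 from edgeR). Mccc2 kept its call with each rat left out. Bckdha was lost without any rat but rats 6 and 8 and Ckmt2 without rat 1, 2, 3, 5, 7, 9 or 10, with an adjusted p of up to 0.125 and 0.0807 in edgeR. Ppargc1a, the coactivator that drives the formation of mitochondria, had medians of 25.7 and 23.9 TMM CPM (-0.07, SE 0.14, adjusted p = 0.867 from edgeR), and Perm1, a muscle regulator of the same genes, had -0.47 (SE 0.21, adjusted p = 0.253 from edgeR).

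**Figure D3:**
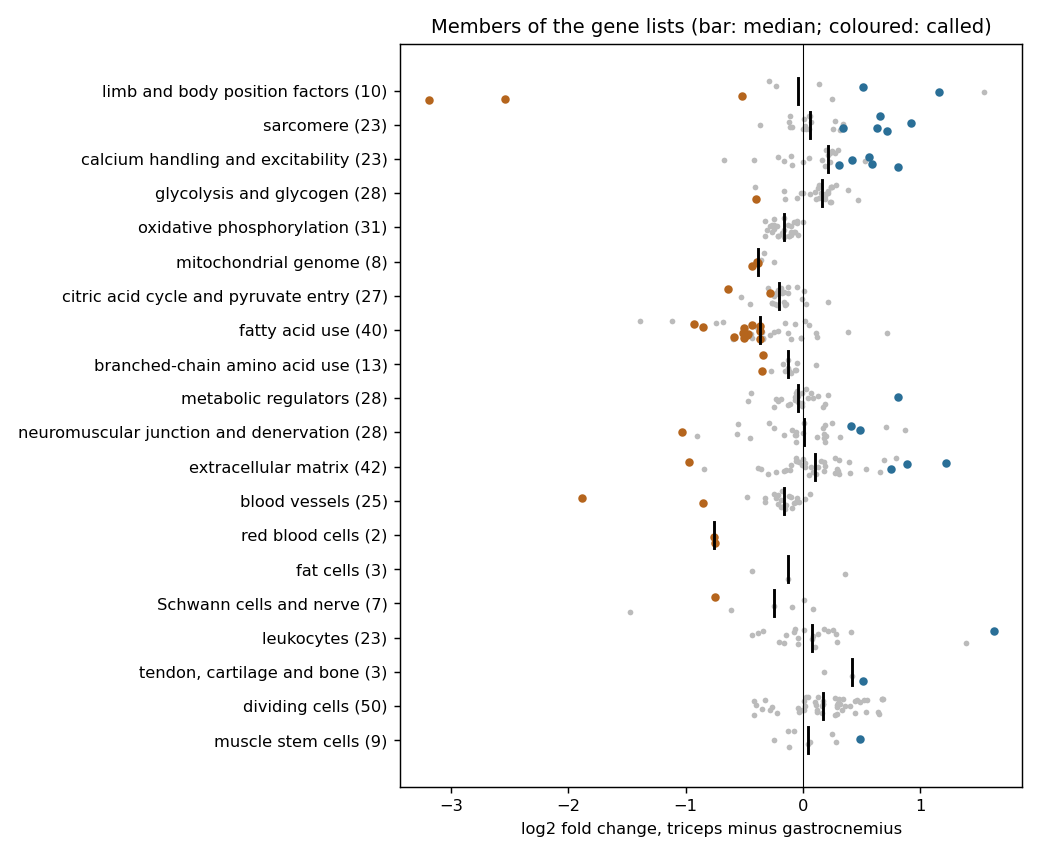
Log2 fold change of triceps brachii against gastrocnemius (horizontal axis) for the members with a symbol of 20 gene lists, with the number of members in brackets. Brown and blue points were called higher in gastrocnemius and in triceps brachii, grey points were not called, and black bars are medians, which lie at -0.37 for fatty acid use, -0.38 for the mitochondrial genome and 0.21 for calcium handling.

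Some genes of the sarcomere, the contractile unit of the fibre, were higher in triceps brachii. Of 23 sarcomere genes with a symbol, 5 were called higher in triceps brachii (21.7%, against 1.85% of all genes tested) and none in gastrocnemius, also without rats 4 and 6. The list's median was 0.06, and 17 members had a positive log2 fold change. Actn3, the actinin of fast fibres that anchors actin at the Z disc, had 4972, 7447 and 14134 TMM CPM in gastrocnemius and 10946, 12818 and 15855 in triceps brachii, higher in triceps brachii in 9 of 10 rats (0.72, SE 0.21, adjusted p = 0.0397 from edgeR), or 1.65-fold. Myoz1, a Z-disc protein of fast fibres that binds calcineurin, had 2068, 2808 and 5141 against 4036, 4678 and 5778 (0.63, SE 0.16, adjusted p = 0.0241 from edgeR). Mylk2, the myosin light chain kinase of skeletal muscle, had 1185, 1491 and 2446 against 2055, 2407 and 2843 (0.66, SE 0.16, adjusted p = 0.0197 from edgeR).

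The highest gastrocnemius value of Mylk2, 2446 TMM CPM, belonged to rat 4, and this library also held the highest gastrocnemius level of Actn3. Tcap, the titin cap, had 680 and 871 TMM CPM as medians (0.34, SE 0.10, adjusted p = 0.0393 from edgeR). Lmod1, a leiomodin known mostly from smooth muscle, had 17.6, 41.1 and 72 TMM CPM against 46.7, 76.2 and 137 and was higher in triceps brachii in 10 of 10 rats (0.92, SE 0.21, adjusted p = 0.00962 from edgeR). Mybpc2, the fast myosin-binding protein C, had 2828, 4811 and 6775 TMM CPM against 5069, 5856 and 6732 and was not called (0.34, SE 0.21, adjusted p = 0.422 from edgeR). Lmod1 kept its call with each rat left out. Mylk2 lost it without rat 2, 3 or 10, Myoz1 without rat 2, 9 or 10, Tcap without rat 2, 3, 6, 7, 8, 9 or 10, and Actn3 without any rat but rats 4 and 8, with an adjusted p of up to 0.133 in edgeR. The count was 1 without rat 2 or 10 and 2 without rat 3 or 9.

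Some genes of calcium release and of the electrical response were also higher in triceps brachii. Of 23 members with a symbol, 5 were called higher in triceps brachii (21.7%, against 1.85% of all genes tested) and none in gastrocnemius. Without rats 4 and 6 the counts were 6 and none. The list median was 0.21 and was positive within 10 of 10 rats (0.04 to 0.45). Of the members 16 had a positive and 7 a negative log2 fold change. At an unadjusted p under 0.05 in edgeR, 10 were higher in triceps brachii and 2 in gastrocnemius, beside 16.6% of all genes tested. DESeq2 called 5 higher in triceps brachii and 1 in gastrocnemius. Cacna1s, the voltage sensor of the fibre membrane that triggers calcium release, had 885, 1096 and 1262 TMM CPM in gastrocnemius and 1171, 1463 and 1819 in triceps brachii, higher in triceps brachii in 10 of 10 rats (0.42, SE 0.10, adjusted p = 0.0193 from edgeR). Camk2d, a calcium-dependent kinase, had 56.1, 70.3 and 91.1 against 70.9, 104 and 137, also in 10 of 10 rats (0.56, SE 0.11, adjusted p = 0.003 from edgeR). The potassium channel genes Kcnab1 and Kcnc4 had log2 fold changes of 0.81 (SE 0.20, adjusted p = 0.0201 from edgeR) and 0.59 (SE 0.16, adjusted p = 0.0334 from edgeR), and Tmem38a, a cation channel of the sarcoplasmic reticulum, one of 0.31 (SE 0.09, adjusted p = 0.0405 from edgeR).

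Atp2a1, the pump that returns calcium after a contraction, missed the threshold, with 3296, 4875 and 7403 TMM CPM against 6143, 6813 and 8414 and a higher level in triceps brachii in 9 of 10 rats (0.53, SE 0.16, adjusted p = 0.055 from edgeR). Its highest gastrocnemius level, 7403 TMM CPM, was that of rat 4. Camk2d was called with each rat left out. Cacna1s lost its call without rat 2 or 3, Kcnab1 without rat 2 or 5, Kcnc4 without rat 2, 3, 5 or 10, and Tmem38a without any rat but rat 4, with an adjusted p of up to 0.106 in edgeR, and the list's count fell to 1 without rat 2 and 2 without rat 3 or 5. Of the 10 called genes of both lists 7 have a RefSeq promoter, and 2 of these hold CATTCC, the M-CAT element of muscle genes, which 14.2% of all promoters hold on either strand. The promoter of Cacna1s (GRCr8, chr13:50045418-50045717, plus strand) is shown as one of the pair, with the match, which lies on the opposite strand 69 bases before the start, in capitals.
Cacna1s: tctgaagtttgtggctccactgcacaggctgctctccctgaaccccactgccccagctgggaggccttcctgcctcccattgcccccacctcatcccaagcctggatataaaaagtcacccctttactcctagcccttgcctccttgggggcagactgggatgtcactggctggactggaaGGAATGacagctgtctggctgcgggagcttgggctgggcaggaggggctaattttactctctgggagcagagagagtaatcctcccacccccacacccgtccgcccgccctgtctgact

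No glycolysis or glycogen gene was called higher in triceps brachii by edgeR, DESeq2 or voom. The edgeR fit called 1.85% of all genes tested in that direction, and 2 list members had an unadjusted p under 0.05 in it. Of 28 genes with a symbol 22 had a positive log2 fold change, with a median of 0.16, and the list median was positive in 8 of 10 rats, rat 4 having the lowest value. Aldoa, the aldolase of muscle, had 9449, 12186 and 21119 TMM CPM against 15624, 16149 and 21999 (0.38, SE 0.14, adjusted p = 0.142 from edgeR), and Pygm had medians of 10273 and 12062 TMM CPM (0.24, SE 0.16, adjusted p = 0.498 from edgeR). The single call was Pfkfb2, a regulator of glycolysis known best from the heart, which was higher in gastrocnemius, with medians of 11.5 and 8.34 TMM CPM (-0.40, SE 0.11, adjusted p = 0.0356 from edgeR); it was lost without any rat but rats 4 and 8, at an adjusted p of up to 0.111 in edgeR. Of 28 metabolic regulators 1 was called, higher in triceps brachii (3.57%, against 1.85% of all genes tested). It was Mss51, a mitochondrial protein found mostly in fast fibres, which had 348, 423 and 727 TMM CPM in gastrocnemius and 627, 737 and 1018 in triceps brachii (0.81, SE 0.21, adjusted p = 0.0284 from edgeR). Its highest gastrocnemius level was that of rat 4, and it was lost without rat 2, 3, 5, 9 or 10 (adjusted p of up to 0.0841 in edgeR).

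**Figure D4:**
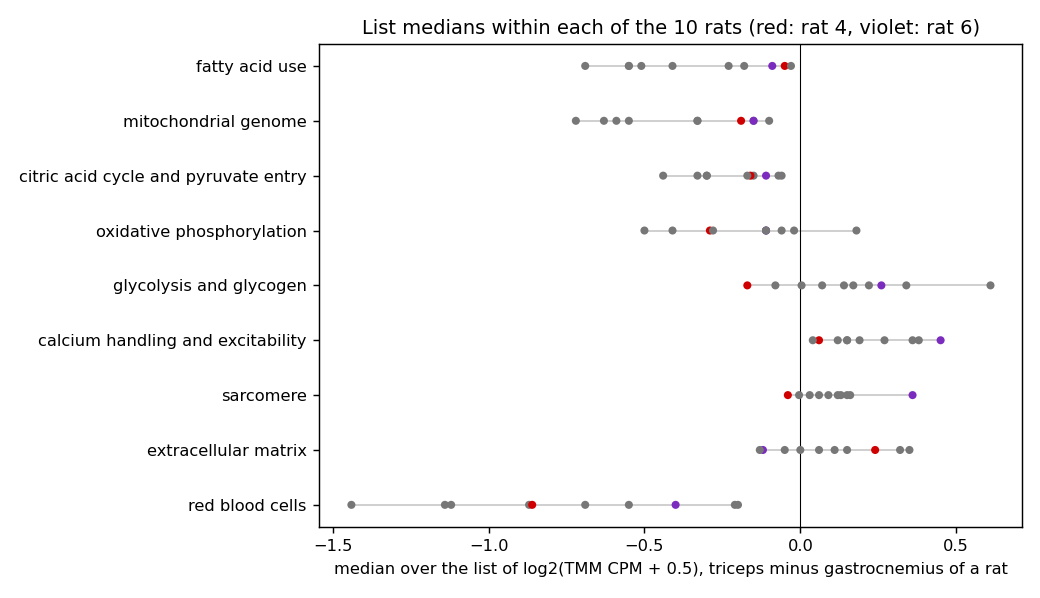
Median over the members of a list of the difference in log2(TMM CPM + 0.5) between triceps brachii and gastrocnemius of a rat (horizontal axis), for 9 lists, with 1 point for each of the 10 rats (rat 4 red, rat 6 violet). The points of fatty acid use, the mitochondrial genome and the citric acid cycle are negative in all 10 rats and those of calcium handling positive in all 10.

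Ion channels and receptors at low levels were among the largest named differences. Cacna1e, the pore of an R-type calcium channel of neurons, had 0.202, 1.23 and 3.12 TMM CPM in gastrocnemius and 0, 0 and 0.252 in triceps brachii, or -4.37 on the log2 scale (adjusted p = 0.00146 from edgeR, SE 0.79). Hcn4, the pacemaker channel of the heart, had 1.55, 3.1 and 10.2 against 0.228, 1.18 and 2.89 (-1.94, SE 0.43, adjusted p = 0.00895 from edgeR). Gcgr, the glucagon receptor, had 1.39, 3.4 and 5.5 against 0.535, 0.732 and 2.17 (-1.81, SE 0.33, adjusted p = 0.00135 from edgeR). Each was higher in gastrocnemius in 10 of 10 rats, which was a condition for naming them, and in each the groups overlapped. Acmsd, an enzyme of tryptophan breakdown, had 0.503, 0.953 and 2.04 against 0.0437, 0.24 and 0.652 (-2.21, SE 0.31, adjusted p = 2.63e-05 from edgeR). Kcnh1, a voltage-gated potassium channel, had -1.10 (SE 0.27, adjusted p = 0.018 from edgeR), and was lost without rat 9 (adjusted p = 0.0507 from edgeR).

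Further genes higher in gastrocnemius were Mettl11b, a methyltransferase of protein ends (-0.80, SE 0.13, adjusted p = 0.000198 from edgeR), Lrrc16b, a regulator of actin capping (-0.96, SE 0.27, adjusted p = 0.0373 from edgeR), and RGD1304963 (-0.85, SE 0.23, adjusted p = 0.0356 from edgeR). Mettl11b was called with each rat left out. Lrrc16b was lost without rat 2, 3, 5, 7, 8, 9 or 10 and RGD1304963 without any rat but rats 7 and 8, with an adjusted p of up to 0.111 in edgeR.

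On the triceps brachii side Plek had the largest difference of the genes with a symbol that averaged 1 TMM CPM or more in either muscle and were higher in 10 of 10 rats. Plek, pleckstrin, a protein kinase C substrate of platelets and leukocytes, had 2.6, 3.64 and 7.86 TMM CPM in gastrocnemius and 7.28, 11.7 and 23.6 in triceps brachii, higher in triceps brachii in 10 of 10 rats (1.63, SE 0.20, adjusted p = 3.36e-06 from edgeR), or 3.09-fold. The other 22 leukocyte genes with a symbol were not called, so that 4.35% of the list was called higher in triceps brachii (against 1.85% of all genes tested). The list median was 0.08, and the summed level overlapped, with 578 to 779 TMM CPM in gastrocnemius and 497 to 899 in triceps brachii. Dusp26, a phosphatase, had 142, 171 and 232 TMM CPM against 227, 294 and 319 (0.72, SE 0.09, adjusted p = 1.33e-05 from edgeR), and together with Plek was the steadiest named difference in this direction. Tspan13, a tetraspanin of cell membranes, had 67.7, 83.5 and 103 against 121, 148 and 186 (0.83, SE 0.12, adjusted p = 7.97e-05 from edgeR) without overlap of the groups, which 13 of all genes tested (0.087%) showed in this direction. Itm2a, a membrane protein of muscle and cartilage precursors, had 71.5, 88 and 120 against 102, 136 and 197 (0.67, SE 0.10, adjusted p = 0.000172 from edgeR).

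Smaller or less abundant genes on this side were Ttc27 (0.77, SE 0.13), Cnrip1, a protein that binds the cannabinoid receptor (0.84, SE 0.14), Diras3, a small GTPase (0.94, SE 0.20), and Pla2g4e, a phospholipase (0.92, SE 0.20). These 4, and Plek, Dusp26, Tspan13 and Itm2a, were called with each rat left out. Ets2, a transcription factor (0.62, SE 0.16), Tceal5 (0.76, SE 0.18) and Unc5a, a netrin receptor of axons (0.70, SE 0.20), were called with adjusted p of 0.0209, 0.0162 and 0.0411 in edgeR. Ets2 was lost without rat 3, 5 or 10, Tceal5 without rat 2 and Unc5a without any rat but rat 4, with an adjusted p of up to 0.117 in edgeR.

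Extracellular matrix genes held a few large differences and a median near 0. Of 42 members with a symbol, 3 were called higher in triceps brachii (7.14%, against 1.85% of all genes tested) and 1 in gastrocnemius (2.38%, against 2.31%), 3 and none without rats 4 and 6, and the median was 0.10. Postn, periostin, which binds collagen in growing or injured tissue, had 19.2, 40.5 and 83.1 TMM CPM in gastrocnemius and 52.1, 86.2 and 293 in triceps brachii (1.22, SE 0.32, adjusted p = 0.0257 from edgeR). Col1a1, a chain of type I collagen, had 200, 257 and 361 against 266, 436 and 1087 (0.89, SE 0.26, adjusted p = 0.0423 from edgeR), and Aebp1, a collagen-binding protein, had medians of 30.3 and 54.7 TMM CPM (0.75, SE 0.21, adjusted p = 0.0397 from edgeR). Postn and Col1a1 were higher in triceps brachii in 10 of 10 rats, with a wide spread between the triceps brachii libraries. Col3a1, of type III collagen, had the same direction in 10 of 10 rats and was not called (0.54, SE 0.20, adjusted p = 0.136 from edgeR).

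Ccdc80, another matrix gene, had a value of 0.66 and was not called (SE 0.23, adjusted p = 0.0946 from edgeR). Adamts12 (ENSRNOG00000027742), a protease, was called higher in gastrocnemius (-0.97, SE 0.27, adjusted p = 0.0365 from edgeR), a symbol that a second gene of the list shares, and Cilp, a protein of cartilage and tendon, had -0.84 (SE 0.30, adjusted p = 0.117 from edgeR) and a lower level in triceps brachii in 10 of 10 rats. Postn was lost without rat 1, 2, 3, 5, 7, 9 or 10, Aebp1 without the same rats, Col1a1 without any rat but rats 4 and 6, and Adamts12 without any rat but rat 4, with an adjusted p of up to 0.125 in edgeR. Of the 3 tendon, cartilage and bone genes with a symbol Scx alone was called, higher in triceps brachii (33.3%, against 1.85% of all genes tested). The summed level of the 3 genes was 25.6 to 37.4 TMM CPM in gastrocnemius and 23.4 to 49.5 in triceps brachii. The part of tendon or fascia in the samples was not tested.

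Of 28 genes of the neuromuscular junction and of denervation, 2 were called higher in triceps brachii (7.14%, against 1.85% of all genes tested) and 1 in gastrocnemius (3.57%, against 2.31%), none without rats 4 and 6, with a median of 0.01. Nrtn, neurturin, a growth factor for neurons, had 0.878, 2.83 and 4.82 TMM CPM in gastrocnemius and 0.792, 1.14 and 2.79 in triceps brachii (-1.03, SE 0.27, adjusted p = 0.0283 from edgeR). Myod1, the factor that commits cells to muscle, had 21, 36.7 and 55 against 26.2, 50.7 and 77.3 (0.49, SE 0.14, adjusted p = 0.0477 from edgeR), and Fgfr4, a receptor of muscle precursors, medians of 11.2 and 14.6 (0.41, SE 0.12, adjusted p = 0.0489 from edgeR). Nrtn was lost without rat 1, 2, 3, 5 or 10 and Myod1 and Fgfr4 without any rat but rat 4, with an adjusted p of up to 0.144 in edgeR.

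Chrna1 and Ncam1, which mark denervated fibres, were not called. Runx1 and Gadd45a of the same list were not called either, and each of these genes had a negative log2 fold change. A missing call does not show equal levels. Chrna1, a subunit of the acetylcholine receptor, had 3.34, 6.5 and 16.7 TMM CPM against 2.45, 3.55 and 9.44 (-0.90, SE 0.46, adjusted p = 0.327 from edgeR), and Ncam1, a cell adhesion molecule, had -0.56 (SE 0.25, adjusted p = 0.237 from edgeR). Of 7 Schwann cell and nerve genes 1 was called higher in gastrocnemius (14.3%, against 2.31% of all genes tested), Nfasc, neurofascin of the nodes along axons, with 6.57, 9.07 and 13.9 TMM CPM against 3.61, 4.66 and 9.52 (-0.75, SE 0.15, adjusted p = 0.005 from edgeR). None of 50 genes of dividing cells was called in the edgeR fit (against 4.16% of all genes tested), although 39 had a positive value and the median was 0.17. Without rats 4 and 6, 1 was called. At an unadjusted p under 0.05 the edgeR fit had 1 in each direction, DESeq2 called 1 (higher in gastrocnemius) and voom called 0. Of 9 genes of muscle stem cells 1 was called, Myod1, higher in triceps brachii (11.1%, against 1.85% of all genes tested).

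The block by rat mattered for many of these calls. Without it, 286 genes were called, of which 279 were among the 622 called with it, and 33 of the 74 called genes named here were not called. Among these were Mlycd (adjusted p = 0.176 from edgeR), Hadh (0.0695), Acat1 (0.0614), Acot2 (0.0514), Ckmt2 (0.0512), Mt-atp6 (0.114), Actn3 (0.0871), Myoz1 (0.0704), Tcap (0.296), Cacna1s (0.0757), Col1a1 (0.0561) and Nfasc (0.0644), while Hoxd8, Hoxd9, Lpl, Cpt1b, Hadha, Lmod1, Camk2d, Plek and Dusp26 were called in both fits. With the 8-month libraries fitted alone, so that the spread of older rats did not enter, 1399 genes were called, 612 of them among the 622 and in the same direction. In voom with the within-rat correlation 15 of the called genes named here were not called: Mt-nd1, Mt-nd6, Mlycd (adjusted p = 0.0847), Tcap (0.127), Eya2 (0.0542), Scx (0.0787), Hba2 (0.0517), Nrtn (0.0716), Myod1 (0.161), Fgfr4 (0.0679), Adamts12 (0.136), Kcnh1 (0.0824), Unc5a (0.0803), Sec1 (0.106) and RT1-O1 (0.101). DESeq2 did not call Actn3 (adjusted p = 0.159).

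Some genes without a symbol differed most of all. ENSRNOG00000016149 had 37.5, 45.3 and 61.3 TMM CPM in gastrocnemius, 9050 reads in all, and 0, 0 and 0.0932 in triceps brachii, where 5 reads were counted over 10 libraries. Divided by the library totals its reads stood at a ratio of 1885 (95% Clopper-Pearson limits 808 and 5807, from counting error alone). ENSRNOG00000016141 had 6.28, 9.44 and 13.4 TMM CPM against 0, 0 and 0.125, or 1816 against 4 reads, a ratio of 473 with an interval of 184 to 1737. Higher in triceps brachii were ENSRNOG00000013670, with 0, 0.124 and 0.537 TMM CPM in gastrocnemius and 0.607, 1.6 and 3.1 in triceps brachii (3.51, SE 0.53, adjusted p = 0.000122 from edgeR), and ENSRNOG00000014378, with 0.0878, 0.185 and 0.287 against 0.298, 1.62 and 4.05 (2.91, SE 0.58, adjusted p = 0.00335 from edgeR). In all 4 the groups did not overlap, as in 0.274% of all genes tested. The 4 were chosen for the largest differences, so that this separation owes something to the choice. Each was called with every rat left out.

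The 10 other rats of 18 months gave a second look at the same difference. Of the 622 genes called at 8 months, 602 had the same direction at 18 months, and 410 were also called in it (65.9%). For genes higher in triceps brachii this was 203 of 276 (73.6%, against 8.48% of all genes tested that were called in that direction at 18 months), and for genes higher in gastrocnemius 207 of 346 (59.8%, against 9.53%). Of the 177 genes over 2-fold at 8 months, 131 were called the same way. The 410 genes are 15.2% of the 2692 genes called at 18 months. With each age fitted alone, 543 of the 1398 genes called at 8 months and also tested at 18 months (38.8%) were called the same way. The share of all genes called at 18 months in that fit is not given here, so that 38.8% has no background beside it.

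**Figure D5:**
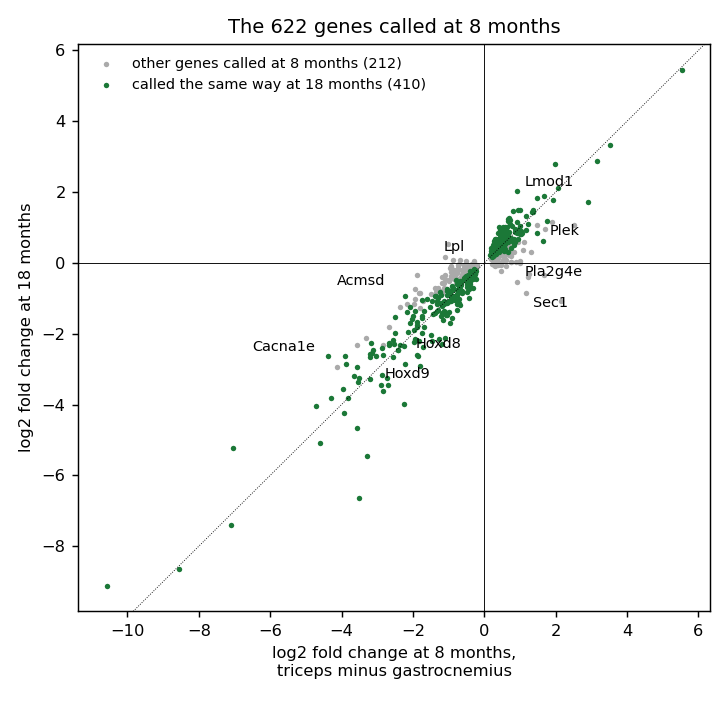
Log2 fold change of triceps brachii against gastrocnemius at 8 months (horizontal axis) and at 18 months (vertical axis) for the 622 genes called at 8 months, with green points for the 410 also called the same way at 18 months and the dotted line for equal values. Most points lie in the quadrants of equal direction, and Pla2g4e and Sec1 lie on the opposite side at 18 months.

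Hoxd9 and Hoxd8 had log2 fold changes of -2.65 and -2.29 at 18 months (adjusted p = 1.83e-09 and 4.84e-10 from edgeR), and Irx3 had 1.32 (adjusted p = 0.000547 from edgeR). Of the sarcomere and calcium genes named above, the following were called again: Actn3 with 1.10, Mylk2 with 1.23, Myoz1 with 1.01, the mostly smooth muscle gene Lmod1 with 2.02 and Cacna1s with 0.67 (adjusted p from 1.51e-07 to 0.000403 in edgeR). Of the 12 fatty acid genes called at 8 months, Cpt1b (-0.36, adjusted p = 0.0038 from edgeR) and Acot2 (-0.42, adjusted p = 0.0114 from edgeR) were called at 18 months, whereas Lpl had -0.38 (adjusted p = 0.243 from edgeR) and Hadha -0.30 (adjusted p = 0.0802 from edgeR). The change of the difference from 8 to 18 months was not significant for these (adjusted p of 0.575 for Lpl and 0.738 for Hadha in edgeR), so that a loss of the difference with age was not shown. The list's median was -0.37 at 8 and -0.09 at 18 months, over members that were chosen for an unequal change with age. Of its 40 members, 5 were called higher in gastrocnemius at 18 months and 3 in triceps brachii. These counts were 5 and 10 for the 23 calcium genes, and 3 and 8 for the 23 sarcomere genes. Of all genes tested 9.53% and 8.48% were called in these directions.

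Over all genes the difference between the muscles changed from 8 to 18 months in 47 (0.314% of the genes tested), and 4 of these were called at 8 months. These 4 were higher in triceps brachii at 8 months and had negative values at 18 months; apart from Pla2g4e they were named after their values were seen. Pla2g4e had medians of 1.69 and 3.12 TMM CPM in gastrocnemius and triceps brachii at 8 months and 3.66 and 2.4 at 18 months (change of -1.46, SE 0.29, adjusted p = 0.016 from edgeR). Sec1, a fucosyltransferase gene, was the single gene called in opposite directions at the 2 ages (1.16 and -0.85, change adjusted p = 0.0356 from edgeR), with medians of 0.308 and 0.676 TMM CPM at 8 and 0.866 and 0.626 at 18 months. Its call at 8 months was lost without any rat but rat 8, with an adjusted p of up to 0.111 in edgeR. Oraov1 had 0.46 and -0.24 (change adjusted p = 0.0419 from edgeR), and RT1-O1 rested on 5 and 28 reads at 8 months (change adjusted p = 0.0407 from edgeR); Oraov1 was lost without rat 2 or 3 and RT1-O1 without any rat but rats 4 and 8.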

How the data were processed

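Poly-A RNA of gastrocnemius and triceps brachii from 29 male Wistar rats was sequenced as 58 libraries. The authors extracted RNA with a miRNeasy kit, prepared TruSeq libraries, aligned read pairs with STAR 2.3.0e to Rnor_6.0 and counted them per gene with HTSeq, after CASAVA 1.8 (tools and build also per the submitters' processing notes). The deposited table holds these read counts as whole numbers, before any filter or scaling, for 32545 Ensembl genes. The strand setting and the annotation release are not given in the sources used here, so that values of overlapping and antisense genes are uncertain, as are those of near-identical copies.

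Here the counts of all 58 libraries were fitted with edgeR 4.0.16 in R 4.3.3 after TMM scaling, keeping the 14947 genes that reached 20 reads in 1 library or more. The model had a term for each rat and the difference of triceps brachii from gastrocnemius at each age. The SE is the absolute log2 fold change divided by the square root of F. Alternatives were DESeq2 1.42.0, voom in limma 3.58.1 with the within-rat correlation, other scalings and filters, the 8-month libraries alone, no block, and each 8-month rat left out; the fit without rats 4 and 6 was added after seeing the data. The pipeline was tested on simulated data.

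Muscles were paired by the animal number of the labels. After removal of group means, the deviations of the 2 muscles of a rat correlated across 12408 genes at 0.304 on average (at least 0.107 in each of the 10 rats), against -0.0343 between different rats. No pair of libraries of a group was a duplicate, since chi-square per degree of freedom was 10.9 or more over 90 pairs. Libraries of a group therefore differed by more than counting error over all genes. The term for each rat takes up what its 2 muscles share. The precision thus rests on the remaining spread of the differences within rats and, for genes of few reads, also on counting error.

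Symbols came from the study's table of 2163 genes with an unequal change with age, read from page images, with identifiers matched to the counts; 357 identifiers had a surplus zero removed and 178 symbols were not in RefSeq. The table was selected on tests that include the 8-month libraries. Named genes were list members and, among called genes with a symbol, an average of 1 TMM CPM or more in either muscle and the same direction in 10 of 10 rats, the 15 largest differences on each side and the 2 steadiest, with 2 genes on each side without a symbol. The samples, gene lists and rules were chosen with earlier results of these data known. Promoters are from RefSeq on GRCr8.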

Additional observations from a re-analysis of the deposited data

Results flagged for a closer look

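Among the 97 genes with values in the Results, 24 of 194 groups of 10 libraries had a highest or lowest library that lay far from its nearest neighbour. The limit used flags about 1 in 20 groups by chance if values are independent and normally spread. Levels in TMM CPM need not be so, and the genes of a library are related, so that an excess over chance was not tested. Rat 4 held 6 of these, all in gastrocnemius and all the highest of the group. They were 61.3 TMM CPM for ENSRNOG00000016149 (next 48.9), 14.3 for Hoxd8 (next 10.5), 77.7 for Ets2 (next 52.7), 2446 for Mylk2 (next 1814), 727 for Mss51 (next 514) and 7403 for Atp2a1 (next 5267). In 4 of these genes triceps brachii was the muscle with the higher median, and in Hoxd8 and ENSRNOG00000016149 it was gastrocnemius.

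Rat 6 also held 6, all in triceps brachii. They were 434 TMM CPM for Lpl (next 271), 150 for Cpt2 (next 117), 15527 for Mt-cytb (next 12703), 5.7 for Irx3 (next 3.48), 0.252 for Cacna1e (next 0.0875) and, as the lowest value, 227 for Dusp26 (next 275). In 5 of the 6, all but Irx3, the library lay on the side of gastrocnemius. The part of sampling within the muscle, or of the rats themselves, was not tested.

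Rat 9 held 5: 106 TMM CPM for Aebp1 (next 67.3), 79.6 for Cilp (next 43.9) and 0.0932 for ENSRNOG00000016149 (next 0.0416) in triceps brachii, and 188 for Ccdc80 (next 123) and 7.86 for Plek (next 5.31) in gastrocnemius. The others were single values: 4.11 TMM CPM for Hoxd8 in triceps brachii of rat 1 (next 2.32), 0.125 for ENSRNOG00000016141 in triceps brachii of rat 2 (next 0.0437), 13606 for Mt-nd1 in gastrocnemius of rat 3 (next 9921), 1279 for Tcap in gastrocnemius of rat 5 (next 900), 5778 for Myoz1 in triceps brachii of rat 7 (next 4936), and 2.79 for Nrtn (next 1.54) and 92.5 for Flt1 (next 74.2) in triceps brachii of rat 8.

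The difference between the muscles at 18 months minus that at 8 months passed the test in 5 of the 97 genes with values in the Results. On the log2 scale it was -1.46 for Pla2g4e (adjusted p = 0.016), -1.84 for Ncam1 (adjusted p = 0.0145), -0.70 for Oraov1 (adjusted p = 0.0419), -2.01 for Sec1 (adjusted p = 0.0356) and -3.24 for RT1-O1 (adjusted p = 0.0407), all from edgeR's quasi-likelihood test with Benjamini-Hochberg adjustment. Runx1 and Gadd45a, members of the denervation list without values in the Results, also passed (-1.62 and -1.75, adjusted p = 0.0315 and 0.03 from edgeR). Oraov1, Sec1 and RT1-O1 have values in the Results because they passed this test. Genes with a symbol were themselves chosen for an unequal change with age. The count of 5 in 97 is therefore no share to read for other genes. Over all genes tested 47 passed (0.314%).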

How the results depend on the processing

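The number of genes called at 8 months depended on the libraries in the fit and on the block by rat more than on the scaling or the tool. It was 622 with the block by rat, 286 with no replicate block and 1399 with only the 8-month libraries. With 1 rat left out it was 238 to 784 (fewest without rat 2, most without rat 4). It was 892 with DESeq2, 528 with voom, 597 to 642 with other scalings and 516 with no filter on low counts. The number over 2-fold was 177, with 92 to 210 when 1 rat was left out. Genes called the same way at 18 months numbered 410, against 194 without the block and 181 to 517 with 1 rat left out. Without the block, the calls fell from 5 to 2 for the sarcomere, from 5 to 1 for calcium handling and from 3 to 0 for the mitochondrial genome; with 1 rat left out they were 1 to 6, 1 to 6 and 0 to 3, and 4 to 17 in place of 12 for fatty acid use. With only the 8-month libraries they were 10 for calcium handling, 7 for the mitochondrial genome and 23 for fatty acid use. For the mitochondrial genome, DESeq2 gave 5 and no filter on low counts 0. Of the 97 genes with values in the Results, 5 had a difference that changed from 8 to 18 months, some of them named for this change. The count was 12 with DESeq2, 1 with voom, 3 with no filter on low counts, 1 without rats 4 and 6, and 2 to 5 with 1 rat left out. Ppargc1a turned from -0.07 to 0.01 without rat 9, and ran from -0.14 to 0.01 with 1 rat left out. The cause of these shifts was not tested. Of the 74 called genes named here, 27 kept their call under every alternative run, and Ppargc1a was the single gene to turn its direction. The numbers of calls lost were 1 with DESeq2, 15 with voom, 6 with library totals, 8 without a filter, 33 without the block and 6 to 43 with 1 rat left out. With library totals alone, the median of all genes was -0.03, and 251 genes were higher in triceps brachii and 346 in gastrocnemius. Counts of few reads limit genes below 1 TMM CPM.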
